A study of Mus musculus with 6 samples.

Results

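Pyruvate enters the mitochondrion through the mitochondrial pyruvate carrier and is burned there by the pyruvate dehydrogenase (PDH) complex. The genes that set this step were followed here in mouse gastrocnemius, a mostly fast-fibre calf muscle, with opposite changes in the transcription factor IRF4. They were the 4 PDH kinases (Pdk1, Pdk2, Pdk3 and Pdk4), the catalytic subunits of the 2 PDH phosphatases (Pdp1 and Pdp2), Pdha1, which encodes the E1α subunit that carries the phosphorylated sites, and the 2 carrier subunits (Mpc1 and Mpc2). These 9 genes were chosen by symbol out of the 24054 genes of the deposited count table, in all 6 libraries. The rule used no measured value, but earlier results of these data were known when the choice was made. All 9 passed the filter on low counts and were tested.

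RNA was sequenced from whole gastrocnemius of male mice on a C57BL/6 background, with 3 libraries in each of the MI4KO and MI4OE groups. MI4KO mice combined loxP-flanked Irf4 alleles with Myl1-cre, a Cre driven from a gene of skeletal muscle fibres, so Irf4 in the other cells of the tissue was not targeted. MI4OE mice carried an IRF4 transgene in the Rosa26 locus behind a stop cassette that the same Cre removes. Both groups therefore carried Cre. No wild-type or flox muscle was analysed here, and each difference below is MI4OE against MI4KO, not against normal muscle. The labels name a high fat diet while the text of the study speaks of chow-fed mice, so the feeding state behind these values is in doubt. This bears on Pdk4 above all. The age of the sequenced mice was not given in the sources used here. The sample titles carry a different number for each library, and the study counts 3 muscles per group. The labels do not state that each library came from a different mouse. The p-values therefore measure the spread between these libraries, which may in part be technical.

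The PDH complex turns pyruvate into acetyl-CoA and commits carbohydrate carbon to the citrate cycle. PDH kinases phosphorylate E1α and switch the complex off, and PDH phosphatases remove the phosphate and switch it on. Skeletal muscle is known for PDK4, whose gene responds to fasting, fatty acids and glucocorticoids through FoxO factors, PPARs and the glucocorticoid receptor. PDK2 is the widely expressed kinase, PDK1 is a target of the hypoxia factor HIF1, and PDP1 is the calcium-stimulated phosphatase of muscle. MPC1 and MPC2 work as a heterodimer in the inner mitochondrial membrane, and neither carries pyruvate alone.

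IRF4 binds DNA, so the start-site sequences of the genes are shown first. RefSeq promoters of build GRCm38.p6, from 250 bases before to 50 after each start, were found for 8 of the 9 genes, at 11 starts, and none was matched for Pdp1. Below, the promoter of Pdk4 is shown because its CPM range between libraries was the widest of the abundant genes, closely followed by Mpc2. The second listed start of Pdk1 is shown because it holds the only IRF-type match. Mpc1 and Mpc2 are shown because they went up and down together. Each is given 5′ to 3′ on the strand of the gene, with motif matches in capitals.
Pdk4, chr6:5496229-5496528, minus strand: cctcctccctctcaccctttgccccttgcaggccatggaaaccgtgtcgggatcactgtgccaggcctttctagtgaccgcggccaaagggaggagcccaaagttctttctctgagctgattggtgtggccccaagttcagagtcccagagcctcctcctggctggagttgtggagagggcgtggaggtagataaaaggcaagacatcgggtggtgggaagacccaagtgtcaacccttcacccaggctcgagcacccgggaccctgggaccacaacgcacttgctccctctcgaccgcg
Pdk1, second listed start, chr2:71874654-71874953, plus strand: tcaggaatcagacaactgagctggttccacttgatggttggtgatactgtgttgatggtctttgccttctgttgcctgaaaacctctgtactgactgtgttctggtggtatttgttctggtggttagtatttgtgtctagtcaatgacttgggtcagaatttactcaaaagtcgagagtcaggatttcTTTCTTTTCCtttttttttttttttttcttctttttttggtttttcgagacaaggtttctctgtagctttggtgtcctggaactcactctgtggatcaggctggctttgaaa
Mpc1, first listed start, chr17:8283537-8283836, plus strand: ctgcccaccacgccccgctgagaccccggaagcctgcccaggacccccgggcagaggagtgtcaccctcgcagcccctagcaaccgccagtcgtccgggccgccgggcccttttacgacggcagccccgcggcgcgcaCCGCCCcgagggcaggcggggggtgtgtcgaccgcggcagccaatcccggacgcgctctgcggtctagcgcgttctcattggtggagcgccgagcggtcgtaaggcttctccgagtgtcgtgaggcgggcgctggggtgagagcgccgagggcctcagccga
Mpc2, chr1:165461010-165461309, plus strand: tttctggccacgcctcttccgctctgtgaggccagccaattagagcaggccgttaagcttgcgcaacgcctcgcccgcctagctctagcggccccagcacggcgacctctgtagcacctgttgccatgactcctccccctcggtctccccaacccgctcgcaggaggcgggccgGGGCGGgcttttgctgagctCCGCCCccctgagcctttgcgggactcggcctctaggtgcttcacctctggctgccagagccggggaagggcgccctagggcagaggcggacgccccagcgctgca

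The capitals in the Pdk1 sequence mark the composite element of ETS and IRF factors, written here as GGAA and GAAA with 2 bases between them, found on the minus strand at position -62 from the start, right beside a long run of T. In the Mpc1 and Mpc2 sequences they mark GC boxes (GGGCGG). Motifs were searched on both strands. The interferon-stimulated response element core, a pair of GAAA runs with 2 bases between, was in 0 of the 11 promoters, against 3.44% of all 32851 RefSeq promoters. The ETS-IRF element was in 1 of 11, against 2.72% of all. These 2 motifs differ in 1 base and were counted apart. The forkhead core TGTTTAC (3.65% of all), the PPAR repeat of AGGTCA with 1 base between (0.0396%), the glucocorticoid receptor palindrome of AGAACA and TGTTCT with 3 bases between (0.00913%) and TATAAA (13.6%) were in 0 of 11. The GC box was in 6 promoters of 5 genes, against 35.7% of all promoters. A match here is a run of letters in a short window, not a measured binding site, and the lack of a match says nothing of sites elsewhere. IRF4 binding was not measured in these samples.

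The libraries held 18828605 to 29239585 expected counts. Irf4 followed the genotype labels. It was at 0.246, 0 and 0.0672 CPM (expected counts over the TMM-scaled library size) in MI4KO 1, 2 and 3, against 141, 369 and 261 CPM in MI4OE 1, 2 and 3 (adjusted p = 0.0055 in edgeR's quasi-likelihood test). The Rosa26 transcript Gt(ROSA)26Sor was also higher in every MI4OE library (adjusted p = 7.6e-05). The muscle genes Ckm and Acta1 and the fast-fibre myosin Myh4 were among the abundant transcripts of each library. Myh4 was lowest in MI4OE 1, at 39865 CPM against 79759 to 110582 CPM elsewhere. The fast myosins Myh1 and Myh2 were highest there, at 10167 and 7421 CPM against at most 5964 and 1808 CPM elsewhere. Of 12 fast-fibre genes, 10 had fitted values below 0 and 2, Myh1 and Myh2, above. Several libraries stood apart. The 11 slow-fibre genes summed to 7632 CPM in MI4OE 1 and 757 CPM in MI4OE 3, against 47.0 to 164 CPM in the other 4 libraries. Of 11 adipocyte genes, 8 were at least 1.5-fold lower in MI4OE with an unadjusted p under 0.05 and 5 of them did not overlap between groups, against 2.28% and 5.48% of all tested genes, with a median log2 fold change of -3.53. Their sums, 539 to 1214 CPM in MI4KO and 296 to 423 CPM in MI4OE, lay largely in Fabp4 and Plin4, which did not meet that criterion. The brown-fat gene Ucp1 was at 71.0 CPM in MI4KO 2 and at no more than 0.148 CPM elsewhere. All 6 fibroblast genes were higher in every MI4OE library than in any MI4KO library, as were 7.38% of all tested genes, with sums of 204 to 309 CPM in MI4KO and 358 to 484 CPM in MI4OE. Of 5 endothelial genes, 4 were separated in the same way, with sums of 81.3 to 130 CPM in MI4KO and 153 to 288 CPM in MI4OE. The sums of 5 Schwann cell genes (28.0 to 118 and 75.8 to 221 CPM) and of 6 erythrocyte genes (188 to 299 and 249 to 755 CPM) overlapped between the groups. In whole tissue, fewer cells of a type and less RNA per cell cannot be told apart.

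None of the 9 genes passed an adjusted p of 0.05 by the quasi-likelihood test, where 3 of all 12660 tested genes (0.0237%) did. The lowest unadjusted p among them was 0.120, for Pdk3, so 0 of 9 had an unadjusted p under 0.05, against 7.58% of all genes tested. None met the looser criterion of 1.5-fold with an unadjusted p under 0.05, which 6.64% of all tested genes met. The count by adjusted p was also 0 under DESeq2, edgeR's exact test and limma. The MI4KO and MI4OE values overlapped for all 9 genes, whereas 12.9% of all tested genes had groups that did not. The fitted log2 fold changes of the 9 genes ran from -1.04 to 0.38, with 5 above 0 and 4 below, and their median was 0.0031 against -4.3e-05 over all genes tested.

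**Figure D1:**
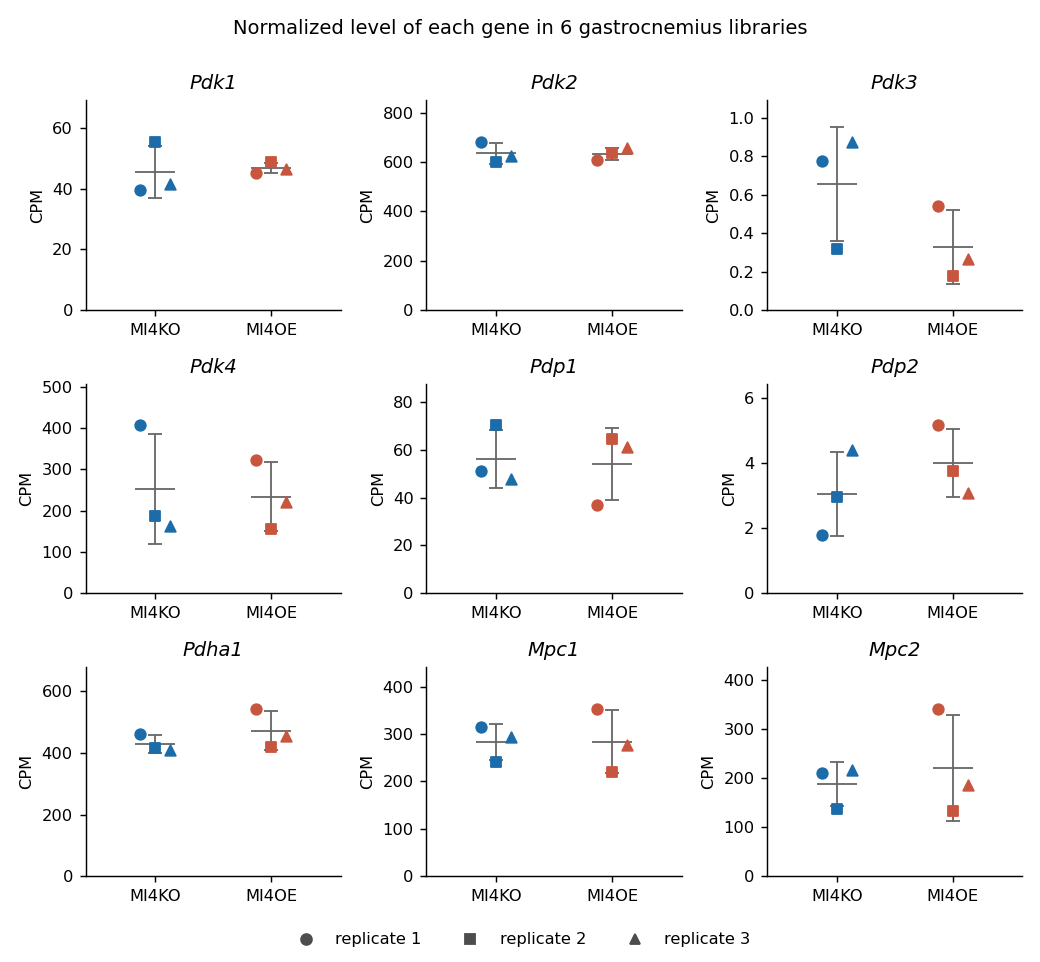
CPM of each gene (y axis, from 0, a different scale in each panel) in the 3 MI4KO and 3 MI4OE libraries, with symbols for replicates and bars for the mean ± SD. The 2 groups overlap in every panel, and Pdk4 is highest in the first replicate of each group.

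The intervals say how large a difference these libraries leave possible. For Pdk1, Pdk2, Pdha1 and Mpc1 the whole 95% interval lay within 1.5-fold in either direction. For the other 5 genes, Pdk3, Pdk4, Pdp1, Pdp2 and Mpc2, it reached further, so a change of more than 1.5-fold is not excluded.

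**Figure D2:**
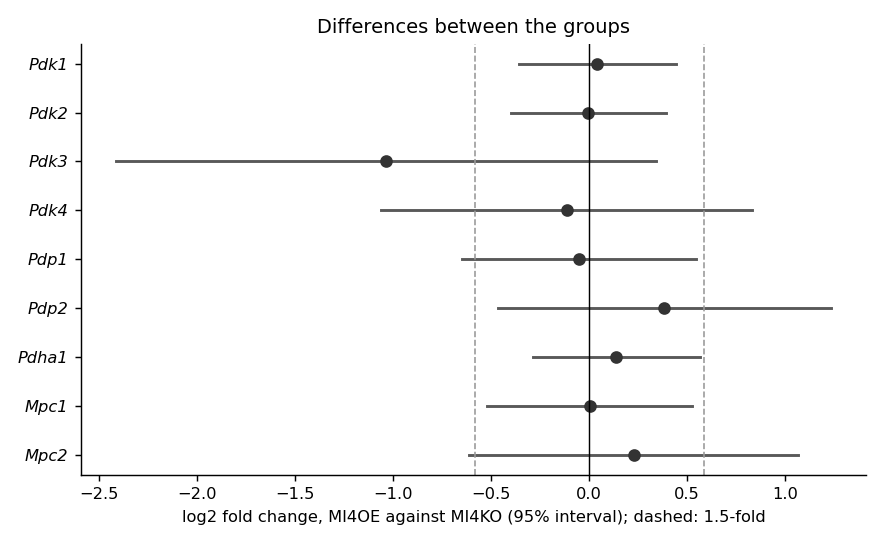
Fitted log2 fold change of MI4OE against MI4KO (x axis) for each gene, with 95% intervals and dashed lines at 1.5-fold. All 9 intervals cross 0, those of Pdk1, Pdk2, Pdha1 and Mpc1 stay inside the dashed lines, and that of Pdk3 is the widest.

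Among the kinases, Pdk2 was the main transcript and the steadiest. It stood at 680, 600 and 625 CPM in MI4KO and 607, 638 and 655 CPM in MI4OE. The highest library was only 1.13-fold above the lowest, the smallest such range of the 9 genes. Its mean was 635 ± 41.2 CPM in MI4KO and 633 ± 24.5 CPM in MI4OE (SD, n = 3 each), with a fold of 0.998 in MI4OE and a 95% interval of 0.759 to 1.31. The adjusted p was 0.999.

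Pdk4, the kinase of fasting and fat use, had the widest CPM range of the abundant genes, with 2.61-fold between its highest and lowest library. Mpc2 came close, at 2.55-fold. In TPM the fold range of Pdk4 (76.4 to 159) was not the widest, being below that of Mpc2 (314 to 683). Pdk4 was at 406, 188 and 163 CPM in MI4KO, against 322, 156 and 222 CPM in MI4OE. MI4KO 1 and MI4OE 1 were the 2 highest libraries, 1 from each group, and the other 4 lay between 156 and 222 CPM. The means were 252 ± 134 CPM and 233 ± 83.7 CPM (SD, n = 3 each). The log2 fold change was -0.12 with an SE of 0.41, the fold interval ran from 0.480 to 1.78, and the adjusted p was 0.968. The sign of this difference rested on single libraries. It was 0.40 without MI4KO 1, -0.43 without MI4OE 1, 0.10 without MI4OE 2 and 0.0992 without both first replicates, and none of these passed the test.

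Pdk1 was a minor kinase at 39.6, 55.3 and 41.4 CPM in MI4KO and 45.2, 48.6 and 46.5 CPM in MI4OE. The 3 MI4OE libraries fell inside the range of the MI4KO libraries. The log2 fold change was 0.04 (95% interval -0.36 to 0.44, adjusted p = 0.974).

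Pdk3 was close to the limit of detection, at 19, 8 and 26 counts in MI4KO and 11, 5 and 6 counts in MI4OE. A floor of 3 counts corresponds to 0.101 to 0.148 CPM across the libraries, and Pdk3 lay at 0.175 to 0.873 CPM. The mean was 0.656 ± 0.297 CPM in MI4KO and 0.327 ± 0.191 CPM in MI4OE (SD, n = 3 each). MI4OE 1, at 0.541 CPM, lay above MI4KO 2, at 0.317 CPM, so the groups overlapped. The log2 fold change was -1.04 (95% interval -2.41 to 0.34, adjusted p = 0.754 by edgeR's quasi-likelihood test). Without MI4OE 1 it was -1.58 and met the looser criterion, with an unadjusted p of 0.0479, but not the adjusted test. It was -0.71 without MI4OE 2 and -0.78 without MI4KO 3, and the fits without the other libraries lay between these and -1.58.

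Levels of different genes were compared in TPM, RSEM's measure that allows for transcript length. Pdk2 made up most of the kinase transcript pool in every library, with 413.5 to 511 of a summed 544 to 635 TPM. Pdk4 was the second kinase. Its share of the pool was 27.2%, 16.2% and 14.0% in MI4KO and 24.8%, 13.2% and 17.5% in MI4OE. The share was highest in the same first replicates in which Pdk4 itself was highest, and the group means were 19.2 ± 7.06% and 18.5 ± 5.89% (SD, n = 3 each). The difference of -0.68 percentage points had an exact two-sided permutation p of 0.9, and the smallest p this design allows is 0.1. Pdk1 made up 1.75% to 3.14% of the pool and Pdk3 at most 0.132%.

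**Figure D3:**
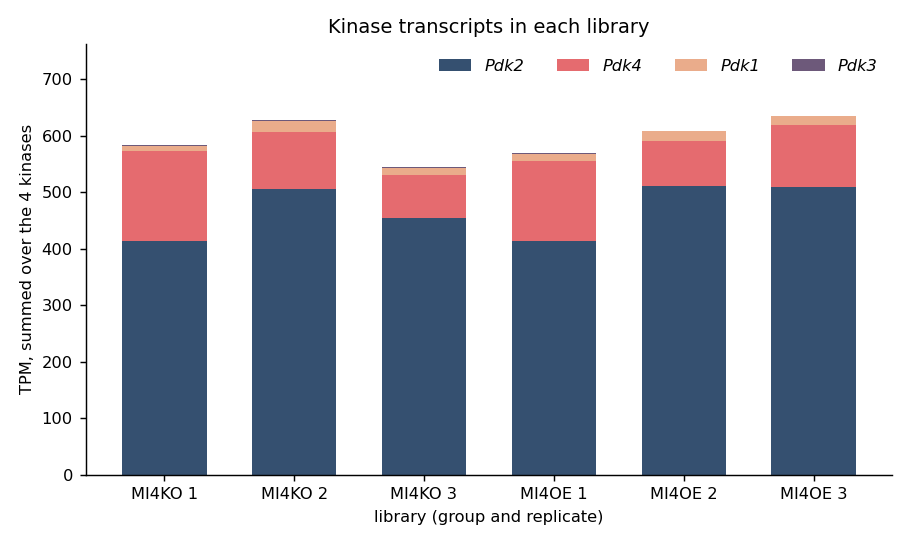
TPM of the 4 PDH kinases stacked per library (y axis, from 0). Pdk2 is the largest segment in all 6 libraries, and the Pdk4 segment is tallest in MI4KO 1 (159 TPM) and MI4OE 1 (141 TPM).

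Of the phosphatases, Pdp1 was the abundant one, at 51.0, 70.3 and 47.9 CPM in MI4KO and 37.0, 64.8 and 61.2 CPM in MI4OE. It was lowest in MI4OE 1, the library in which 4 other genes of the set, Pdp2, Pdha1, Mpc1 and Mpc2, were highest. The log2 fold change was -0.05 (95% interval -0.65 to 0.54, adjusted p = 0.978). Pdp1 was the only gene of the set with several transcripts in the quantification. Its main transcript held 63.9% to 89.0% of the gene's counts, one of its 5 transcripts was at 0 in every library, and the other 3 moved between 0% and 21.4%. Those shares are RSEM's division of reads among overlapping sequences, and no difference between transcripts was tested.

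Pdp2 was low, at 1.80, 2.97 and 4.40 CPM in MI4KO and 5.17, 3.78 and 3.09 CPM in MI4OE. The highest library was 2.87-fold above the lowest. The means were 3.06 ± 1.30 CPM and 4.01 ± 1.06 CPM (SD, n = 3 each), and the log2 fold change was 0.38 (95% interval -0.46 to 1.23, adjusted p = 0.857). With single libraries left out it was 0.73 without MI4KO 3, 0.11 without MI4KO 1 and 0.16 without MI4OE 1. Without MI4KO 1 and MI4OE 1 together it was -0.10.

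The ratio of summed kinase to summed phosphatase TPM was 34.2, 19.1 and 26.7 in MI4KO and 36.6, 20.8 and 23.96 in MI4OE. The first replicate of each group had the highest value. In these libraries the phosphatase sum was lowest, at 17.03 and 15.54 TPM against 20.38 to 32.74 TPM elsewhere. Their kinase sums, 582.95 and 568.66 TPM, lay within the range of the other libraries, 543.93 to 635.17 TPM. The mean log2 ratio was 0.0197 higher in MI4OE, with an exact two-sided permutation p of 1. These are transcript ratios and say nothing of enzyme amounts or of the phosphorylation of E1α, which were not measured in these files.

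Pdha1, the substrate of both enzyme classes, was at 461, 414 and 407 CPM in MI4KO and 542, 418 and 452 CPM in MI4OE. MI4OE 1 was the highest library and the remaining 5 lay close together. The means were 427 ± 29.4 CPM and 471 ± 63.8 CPM (SD, n = 3 each), the log2 fold change was 0.14 (95% interval -0.29 to 0.57) and the adjusted p was 0.898. Its sign held in every alternative fit, between 0.02 and 0.24.

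The carrier subunits went up and down together across the libraries. Mpc1 stood at 314, 242 and 293 CPM in MI4KO and 353, 221 and 276 CPM in MI4OE. Mpc2 stood at 211, 138 and 217 CPM in MI4KO and 342, 134 and 186 CPM in MI4OE. Both were highest in MI4OE 1, lowest in MI4OE 2 and second lowest in MI4KO 2. MI4OE 1 and MI4OE 2 bounded the whole range, so the spread within MI4OE was wider than the gap between the groups.

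The log2 fold change of Mpc1 was 0.0031 (95% interval -0.52 to 0.53, adjusted p = 0.999). Mpc2 gave 0.23 (95% interval -0.61 to 1.07, adjusted p = 0.915), which became -0.24 without MI4OE 1. The ratio of Mpc1 to Mpc2 TPM was 1.39, 1.64 and 1.26 in MI4KO and 0.963, 1.54 and 1.38 in MI4OE. Only in MI4OE 1 was Mpc2 above Mpc1. The mean log2 ratio differed by -0.16 (MI4OE minus MI4KO), with an exact two-sided permutation p of 0.6. With the kinase share, the carrier ratio and the kinase to phosphatase ratio, 3 such differences were tested, and each adjusted p was 1.

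Within MI4KO the order of mean TPM was Mpc1 (552), Pdk2 (458), Mpc2 (392), Pdha1 (250), Pdk4 (112), Pdp1 (21.9), Pdk1 (14.2), Pdp2 (1.44) and Pdk3 (0.520). The ranges of Pdk2 and Mpc2, of Pdp1 and Pdk1, and of Pdp2 and Pdk3 overlapped, and the other neighbours were apart in all 3 libraries. The same order held in MI4OE, with Mpc1 at 575, Pdk2 at 478, Mpc2 at 473, Pdha1 at 286, Pdk4 at 111, Pdp1 at 21.9, Pdk1 at 14.9, Pdp2 at 1.90 and Pdk3 at 0.270 TPM. There Mpc1, Pdk2 and Mpc2 overlapped as neighbours, as did Pdp1 and Pdk1. In both groups the carriers, the main kinase and E1α thus formed a high tier, Pdk4 stood alone below it, and the phosphatases and remaining kinases were low. Counts of Pdk1, Pdk4, Pdp2, Pdha1 and Mpc1 were fractional in at least 1 library, which in RSEM means that some reads were shared with other transcripts, and those of the other 4 genes were whole to within 0.005.

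The other subunits of the complex were read in the same way. Of 6 further PDH complex genes, 5 were tested and 0 met either criterion, which is close to the background of 6.64%. The median log2 fold change of the 5 tested genes was 0.11, with 0.0475 without MI4KO 1 and 0.0185 without MI4OE 1. Pdhb, the E1β subunit, was at 173 ± 10.6 CPM in MI4KO and 200 ± 53.3 CPM in MI4OE (SD, n = 3 each; log2 fold change 0.21). Dlat, the E2 core, gave 0.11, Dld, the shared E3 subunit, -0.05, and Pdhx, the E3-binding protein, 0.18. Pdha2, the testis form of E1α, was at 0 counts in all 6 libraries. Of 10 genes for lipoate and thiamine, the cofactors of the complex, 9 were tested and 0 met either criterion (median 0.0062). That median was 0.17 without MI4KO 1 and -0.10 without MI4OE 1. The 5 genes of the sister complex for branched-chain ketoacids also gave 0 (median 0.04, with 0.0324 without MI4KO 1 and -0.0211 without MI4OE 1). These lists were read by counts alone, and no list was tested as a whole.

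Other enzymes and carriers make, use or move pyruvate outside the PDH complex. Of 14 listed genes 13 were tested, 0 passed the adjusted test, 8 had fitted values below 0, and the median was -0.31. Gpt2, the mitochondrial alanine aminotransferase, met the looser criterion. It was at 636, 393 and 306 CPM in MI4KO and 135, 257 and 249 CPM in MI4OE, so each MI4OE library lay below each MI4KO library (log2 fold change -1.06, SE 0.35, unadjusted p = 0.0176, adjusted p = 0.546 by edgeR's quasi-likelihood test). It no longer met that criterion without MI4KO 1. Of all tested genes, 2.28% met it in this direction.

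Pkm, the last enzyme of glycolysis, gave a log2 fold change of -0.31, Ldha, the muscle lactate dehydrogenase, -0.37, Slc16a3, the lactate exporter MCT4, -0.72, and Bsg, its chaperone, -0.32. None of these 4 met either criterion in edgeR's quasi-likelihood test, and each was highest or second highest in MI4KO 1. Slc16a3, just short of the looser criterion there, met it under DESeq2, edgeR's exact test and limma. Without MI4KO 1 the median of the list was -0.18. Ldhb, the heart form of lactate dehydrogenase, named after its values were seen, was at 8.84, 18.2 and 73.6 CPM in MI4KO and 631, 8.77 and 108 CPM in MI4OE, with its peak in MI4OE 1 and groups that overlapped. It met the looser criterion as higher in edgeR's exact test, but not in DESeq2 or limma.

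In the citrate cycle, which takes up the acetyl-CoA, 16 of 18 genes had fitted values above 0 with a median of 0.19, and 0 passed the adjusted test. Idh2, the mitochondrial NADP-dependent isocitrate dehydrogenase, met the looser criterion at 38.3, 61.6 and 144 CPM in MI4KO and 777, 67.7 and 191 CPM in MI4OE (log2 fold change 2.09). This is 1 of 18 genes, against 4.36% of all tested genes in this direction. The highest level was in MI4OE 1. Without MI4OE 1, 0 of the 18 genes met the criterion and the median was 0.0392, and without MI4KO 1 it was also 0, with a median of 0.22. Idh2 met it under edgeR's exact test too, but not under DESeq2, which called Mdh1 instead, nor under limma. Cs, the citrate synthase, gave 0.08, Ogdh, a subunit of the oxoglutarate dehydrogenase, 0.19 and Mdh2, the malate dehydrogenase, 0.37.

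**Figure D4:**
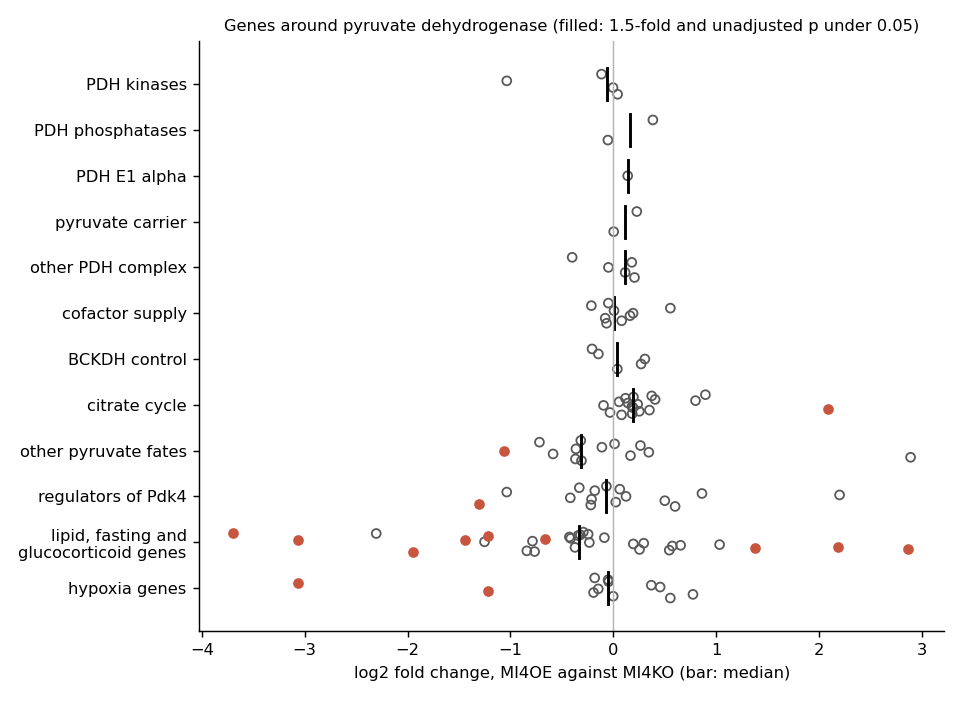
Fitted log2 fold change of MI4OE against MI4KO (x axis) for each tested gene of the PDH set and of the lists around it (rows), with bars at list medians. Filled points met 1.5-fold and an unadjusted p under 0.05, and the 4 uppermost rows, which hold the 9 genes, have none.

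Factors that act on the Pdk4 gene were also read in these libraries. Of 15 such genes 0 passed the adjusted test, 7 had fitted values above 0 and 8 below, and the median was -0.07, which became 0.0958 without MI4KO 1 and -0.13 without MI4OE 1. Pparg, the adipocyte PPAR, met the looser criterion at 1.76, 6.26 and 7.76 CPM in MI4KO and 2.80, 1.68 and 1.94 CPM in MI4OE (log2 fold change -1.30), beside the adipocyte genes given above. This is 1 of 15 genes, against 2.28% of all tested genes in this direction. Under limma Pparg did not meet the criterion, and under DESeq2 and edgeR's exact test Esrrb, an oestrogen-related receptor, met it as higher as well. The abundant members of this list, Rxra (-0.21), Rxrg (-0.42), Esrra (0.12) and Foxo4 (0.06), met neither criterion. Foxo1, named here after its values were seen, was at 110 CPM in MI4KO 1 and at 19.7 to 26.1 CPM in the other 5 libraries (log2 fold change -1.04, unadjusted p = 0.147, by edgeR's quasi-likelihood test).

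Genes that respond to fatty acids, fasting or glucocorticoids and are often measured with Pdk4 were highest in different libraries. Of 30 genes, all tested, 0 passed the adjusted test, 3 met the looser criterion as higher and 6 as lower in MI4OE, and the median was -0.33. Under DESeq2 1 of the 30 passed the adjusted test, Angptl4, and under edgeR's exact test 2 did, Angptl4 and Ddit4, where 111 and 108 of the 12660 tested genes passed. Over all genes tested, 552 (4.36%) met the looser criterion as higher and 289 (2.28%) as lower. This balance rested on single libraries, with 298 higher and 330 lower without MI4KO 1 and 305 higher and 285 lower without MI4OE 1. The study, with its own edgeR fit and the same criterion, counted more genes as lower than as higher in MI4OE.

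The 3 higher genes handle fatty acids and all peaked in MI4OE 1. Fabp3, the muscle fatty acid binding protein, was at 207, 149 and 378 CPM in MI4KO and 2676, 163 and 484 CPM in MI4OE. Acot1 and Acot2, which cleave acyl-CoA, reached 7.08 and 84.1 CPM in MI4OE 1, against at most 1.41 and 26.5 CPM in any other library. Without MI4OE 1 none of the 3 met the criterion, and without MI4KO 1 none did. Under limma Acot2 met it, but Fabp3 and Acot1 did not.

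The 6 lower genes were Angptl4, Cebpd, Ddit4, Tsc22d3, Trim63 and Mt2. Angptl4, a lipoprotein lipase inhibitor and PPAR target, was at 6.18, 6.06 and 13.7 CPM in MI4KO and 1.57, 2.59 and 2.52 CPM in MI4OE (log2 fold change -1.95, SE 0.39, unadjusted p = 0.00122, adjusted p = 0.433 by edgeR's quasi-likelihood test). The groups did not overlap, as for 5.48% of all tested genes in this direction. Ddit4, a stress and glucocorticoid responsive inhibitor of mTORC1, was at 180, 100 and 23.9 CPM in MI4KO and 19.4, 5.31 and 11.8 CPM in MI4OE (log2 fold change -3.06). Its groups did not overlap either, and 5 of the 30 genes were separated as lower in this way.

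Trim63, the muscle ubiquitin ligase MuRF1, was at 810, 263 and 203 CPM in MI4KO and 158, 185 and 204 CPM in MI4OE. Mt2, a metallothionein, was at 123, 6.30 and 6.89 CPM in MI4KO and 5.07, 2.69 and 2.83 CPM in MI4OE, so its groups did not overlap. Fbxo32, the other classical atrophy ligase, did not meet the criterion and was likewise highest in MI4KO 1, at 733 CPM against 262 to 377 CPM elsewhere. Without MI4KO 1, 3 genes of the list met the criterion as lower (Angptl4, Ddit4 and Mt2), and the median was -0.0094. Without MI4OE 1, Tsc22d3 and Trim63 no longer met it, and Cebpb and Mt1 did. Mt2 did not meet it under DESeq2, nor Trim63 under limma. DESeq2 and edgeR's exact test also called listed genes that the main test did not. Their counts were 4 higher and 6 lower under DESeq2 and 4 higher and 7 lower under the exact test. Under limma 1 gene was higher and 5 were lower. Of 12 hypoxia genes read for Pdk1, 2 met the criterion as lower, Car9 and Ddit4, and 0 as higher (median -0.05), with 2.28% of all tested genes lower. Without MI4KO 1 or without MI4OE 1 the count was 1 (Ddit4), with medians of -0.06 and -0.25. Ddit4 stands in both lists and, at the adjusted test, passed in edgeR's exact test but not in DESeq2 or limma.

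The 2 libraries with the most Pdk4 therefore differed from each other in the genes around it. MI4KO 1 had the highest Foxo1, Trim63, Fbxo32, Mt2 and Ddit4. MI4OE 1 had the highest Fabp3, Acot1 and Acot2, the highest slow-fibre sum, and the highest sum of 7 mitochondrial genes, at 6787 CPM against 4252 to 5128 CPM elsewhere. Mpc1, Mpc2, Pdha1 and Pdp2 were highest in MI4OE 1 as well. The part of fibre content, mitochondrial content or the stress genes in the levels of Pdk4 and the carriers was not tested.

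**Figure D5:**
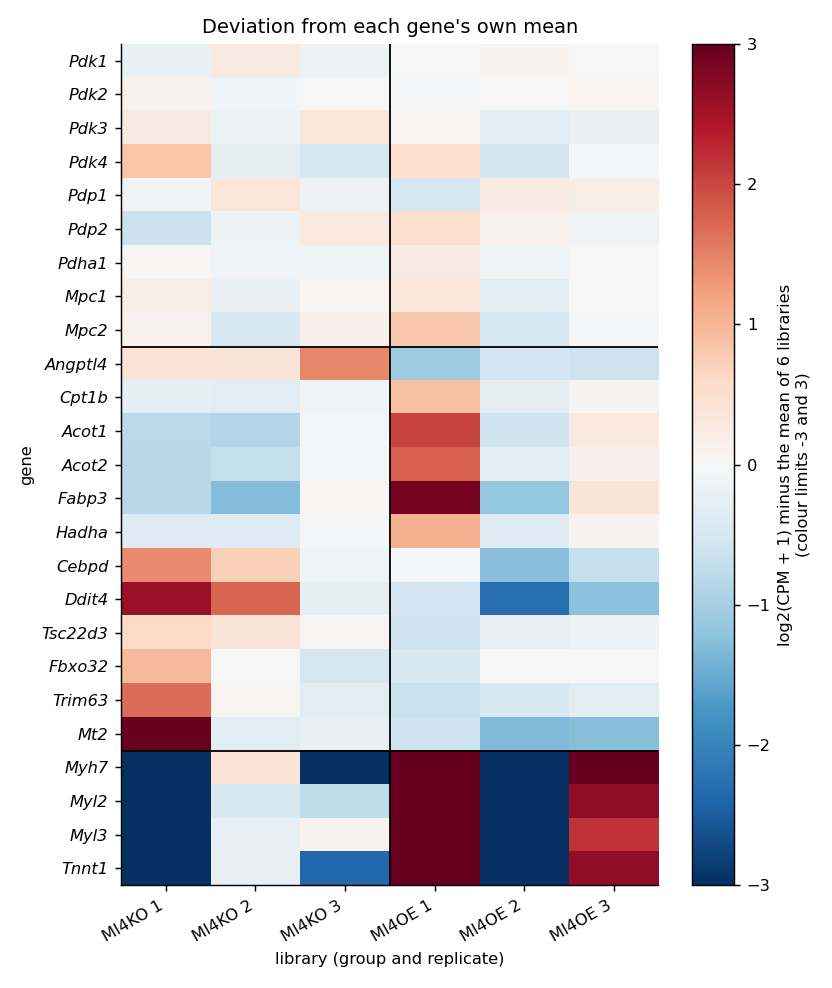
Heat map of log2(CPM + 1) minus each gene's mean over the 6 libraries (colour, limits -3 and 3) for the 9 genes (top), named fatty acid, fasting and glucocorticoid genes (middle) and 4 slow-fibre genes (bottom). Pdk4 is above its mean in MI4KO 1 and MI4OE 1, and Trim63, Fbxo32, Mt2 and Ddit4 are highest in the first of these and Fabp3, Acot1, Acot2 and the slow-fibre genes in the second, where Angptl4 is lowest.

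Genes whose profile over the 6 libraries was most like that of Pdk4 were found among 6405 genes with a mean of at least 10 CPM, by Pearson's r of log2(CPM + 1). They were Fn3k, which encodes fructosamine 3-kinase (r = 0.989), the splicing factor gene Srsf3 (r = 0.976) and Cox16, for an assembly factor of cytochrome c oxidase (r = 0.972). Fn3k was at 17.1, 12.7 and 11.9 CPM in MI4KO and 16.2, 12.0 and 13.03 CPM in MI4OE, the same 2 peaks as Pdk4 at a smaller amplitude. For Pdk3 the closest were Creb3 (r = 0.992), Med9 (r = 0.988) and Cmss1 (r = 0.982), and for Pdp2 they were Ganab (r = 0.995), Ccnd2 (r = 0.976) and Vps16 (r = 0.971). With 6 points and so many genes searched, such values describe these libraries only.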

How the data were processed

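RNA-seq of 6 gastrocnemius libraries was analysed, 3 per genotype label. Replicates were numbered by order and pair nothing. The authors split stranded mRNA reads with bcl2fastq 2.17, mapped them to a UCSC transcript set with Bowtie2 2.1.0 and quantified them with RSEM 1.2.15. The genome build was not given in the sources used here. The authors deposited RSEM's expected counts for genes and transcripts, without normalization, in which a read that matches several transcripts is divided among them. Deposited TPM values allow for transcript length. The authors' own comparison tables (fold changes, p-values and scaled CPM) were not used.

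Expected counts were rounded, filtered with filterByExpr (minimum count 10, minimum total 15), scaled with TMM factors and fitted in edgeR 4.0.16 (R 4.3.3), with 12660 of 24054 genes tested. The main test was the quasi-likelihood test with Benjamini-Hochberg adjustment over all genes tested, at 0.05. A looser criterion, which the study also uses, was 1.5-fold with an unadjusted p under 0.05. Intervals (95%) use the fit's degrees of freedom. A floor of 3 counts covers counting error only. Shares and ratios of TPM were tested by exact permutation. The fits were tested on simulated data.

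The 9 genes and all lists were chosen with earlier results of these data known. The rule for named genes took the 9 genes, Irf4, Gt(ROSA)26Sor, listed genes that passed the adjusted test or the looser criterion, up to 4 of each list with the highest mean CPM, and the 3 most similar profiles for Pdk4 and the 2 other genes of lowest p. Some of these are given by counts only, and 1 listed gene is not reported here by name. Foxo1, Ldhb, Pdha2, Pdpr, Esrrb, Mdh1, Cebpb, Mt1, Myh1 and Myh2 were picked once their values had been seen.

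Alternatives were RLE factors, total counts alone, TMM without the 100 most abundant genes, no filter, a mean of at least 1 CPM, DESeq2 1.42.0, edgeR's exact test, bias-adjusted deviances, limma 3.58.1 on log2(TPM + 1) and log2(TPM + 0.1), TPM recomputed from counts and effective lengths, and fits without each library. Fits without MI4KO 1 and MI4OE 1 together, and list counts without these libraries, were added after the data were seen.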

Additional observations from a re-analysis of the deposited data

How the results depend on the processing

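The count of the 9 genes with an adjusted p under 0.05 was 0 in every alternative run, and the count at 1.5-fold with an unadjusted p under 0.05 was 0 in all but the fit without MI4OE replicate 1, where it was 1 (Pdk3), so it ranged from 0 to 1 when single libraries were left out. Pdk3 (15 alternatives) and Pdha1 (17) kept their sign throughout. Pdk3 had no value in the fits with a mean of at least 1 CPM and without both first replicates, where it failed the filter. With RLE factors, no filter and DESeq2, Mpc1 moved from 0.0031 to -0.0085, -0.0220 and -0.0086, while the median of all genes was -0.0094, -0.0084 and -0.0092, so with RLE and DESeq2 it stayed just above that median. With total counts alone, which shifted the median of all genes by 0.0896 on the log2 scale, Pdk2 was 0.0908, Pdk4 0.0375 and Pdp1 0.0170. Relative to that shift Pdk2 was near 0 and Pdk4 and Pdp1 were below it. With limma, Pdk2 was 0.0610 and Pdk4 0.0075 on log2(TPM + 1), and 0.0611 and 0.0078 on log2(TPM + 0.1), where the median of all genes was 0.0426 and 0.0612, so Pdk2 lay near these medians and Pdk4 below them. Without both MI4KO 1 and MI4OE 1, a choice made after the data were seen, Pdk1 was -0.0287, Pdk2 0.0753, Pdk4 0.0992, Pdp1 0.0877, Pdp2 -0.10, Mpc1 -0.11 and Mpc2 -0.15. Leaving out 1 library at a time gave ranges that spanned 0 for 6 of the 9 genes: -0.0553 to 0.19 for Pdk1, -0.0549 to 0.0430 for Pdk2, -0.43 to 0.40 for Pdk4, -0.20 to 0.16 for Pdp1, -0.19 to 0.15 for Mpc1 and -0.24 to 0.48 for Mpc2. For Pdp2 the range was 0.11 to 0.73 and for Pdk3 -1.58 to -0.71.

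The differences in composition changed sign in the same way. The Pdk4 share of the kinase TPM ranged from -3.85 to 3.35 percentage points, the log2 ratio of Mpc1 to Mpc2 from -0.30 to 0.0383 and the log2 ratio of kinases to phosphatases from -0.22 to 0.22. Over all genes tested, the count with an adjusted p under 0.05 was 3 in the main analysis, 111 under DESeq2, 108 under edgeR's exact test and 1 to 4 with single libraries left out. The count at 1.5-fold with an unadjusted p under 0.05 was 841, against 468 with limma on log2(TPM + 1) and 590 (without MI4OE 1) to 1314 (without MI4OE 2) with single libraries left out. The cause was not tested. No paired analysis was possible because no label ties an MI4KO library to an MI4OE library and the numbers were given by order alone. With 3 libraries per group, the 95% interval stayed within 1.5-fold for Pdk1, Pdk2, Pdha1 and Mpc1 and went beyond it for the other 5 genes. Depth limits Pdk3, which rests on 5 to 26 counts a library.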
